A study of Mus musculus with 9 samples.

Results

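Chromatin accessibility was measured by ATAC-seq, which tags open DNA with a transposase, in primary mouse embryonic fibroblasts (MEFs) below passage 8. The 4 groups were wild-type (WT) MEFs with 3 libraries, untransfected Anp32e null MEFs with 3 libraries, Anp32e null MEFs given a non-targeting (NT) siRNA pool with 1 library, and Anp32e null MEFs given a pool of siRNAs against H2A.Z with 2 libraries. All cells were cultured primary cells from embryos, and both transfected groups carried the same genotype as the untransfected null cells. The libraries of a group had been merged before peaks were called, so each group was 1 peak list, no difference below has a replicate check, and no test between lists was possible. The study describes its cell culture samples as biological replicates, and it left out a library of the H2A.Z knockdown experiment as over-tagmented, that is cut too often by the transposase.

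The sites described here were chosen by their peak calls. Peaks of the 4 lists on chromosomes 1 to 19 were merged wherever they overlapped or touched, which gave 125387 sites. Of these, 6872 held a peak from each of the 3 Anp32e null lists and none from the WT list, and they are called null-shared sites below. That they lack a WT call and have a call in every null list, the H2A.Z siRNA list included, follows from this choice and is not a result. The sites used for comparison were 57522 sites called in all 4 lists, 8635 in WT alone, 3719 in the untransfected null list alone, and 3948 in WT and both siRNA lists but not in the untransfected null list, the mirror image of the null-shared class. Bulk libraries average over cells, so a site open in fewer cells and a site less open in each cell cannot be told apart.

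ANP32E is a histone chaperone that recognises the histone variant H2A.Z and removes it from nucleosomes. H2A.Z replaces H2A in nucleosomes beside many promoters and enhancers, and the study asked how chromatin accessibility changes when its removal is impaired. An ATAC-seq peak marks DNA that is less covered by nucleosomes than its surroundings, which in fibroblasts is typically a promoter, or an enhancer bound by factors such as AP-1, TEAD and RUNX. AP-1 is a dimer of FOS and JUN proteins that acts at a large share of fibroblast enhancers, TEAD factors are the DNA-binding partners of YAP in the Hippo pathway, and RUNX factors direct mesenchymal and skeletal programmes.

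The 6 strongest null-shared sites are shown first because they are the clearest cases of a site open in every null list with no WT call. Strength is the lowest of a site's 3 percentiles of fold enrichment, each within its own list. The windows reach 100 bp to either side of the summit in the untransfected null list and read 5′ to 3′ on the plus strand of GRCm38, the assembly of mm10. Capitals mark matches on either strand to the AP-1 consensus TGANTCA, the RUNX consensus TGTGGT or the TEAD consensus GGAATG.
chr10:16990276-16990476, in an exon of Gm20125: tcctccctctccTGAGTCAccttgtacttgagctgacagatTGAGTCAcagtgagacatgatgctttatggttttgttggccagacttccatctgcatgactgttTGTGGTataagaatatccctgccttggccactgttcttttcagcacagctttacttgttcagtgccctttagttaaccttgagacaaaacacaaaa
chr2:55822752-55822952, intergenic: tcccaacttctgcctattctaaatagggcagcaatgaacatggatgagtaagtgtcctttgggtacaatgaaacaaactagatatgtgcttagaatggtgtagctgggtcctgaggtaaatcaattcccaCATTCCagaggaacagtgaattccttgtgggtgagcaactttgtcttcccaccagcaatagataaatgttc
chr4:88788506-88788706, at the start of Gm13277: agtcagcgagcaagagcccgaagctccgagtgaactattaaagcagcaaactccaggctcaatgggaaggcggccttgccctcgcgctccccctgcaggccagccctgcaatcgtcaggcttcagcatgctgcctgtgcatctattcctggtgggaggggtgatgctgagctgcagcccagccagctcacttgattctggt
chr10:22223577-22223777, within Raet1e and H60b: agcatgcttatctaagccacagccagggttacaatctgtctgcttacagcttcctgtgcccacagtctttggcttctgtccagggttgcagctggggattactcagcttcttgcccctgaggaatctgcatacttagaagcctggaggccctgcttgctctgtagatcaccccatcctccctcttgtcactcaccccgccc
chr11:57091434-57091634, in an intron of Gria1: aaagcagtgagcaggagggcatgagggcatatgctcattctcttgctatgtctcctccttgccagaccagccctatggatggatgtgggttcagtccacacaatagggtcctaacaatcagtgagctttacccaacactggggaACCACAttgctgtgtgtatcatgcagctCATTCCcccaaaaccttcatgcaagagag
chr19:15467860-15468060, intergenic: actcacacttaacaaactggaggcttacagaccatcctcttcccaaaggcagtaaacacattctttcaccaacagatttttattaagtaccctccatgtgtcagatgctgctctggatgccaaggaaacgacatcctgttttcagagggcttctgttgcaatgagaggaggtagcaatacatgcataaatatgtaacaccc

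The strongest site, chr10:16990216-16990649, lay in an exon of the non-coding gene Gm20125, 732842 bp upstream of Cited2, which encodes a transcriptional co-regulator. Its summit held 117 fragments in the untransfected null list, 209 in the NT siRNA list and 809 in the H2A.Z siRNA list, at percentiles of fold of 99.8, 99.8 and 99.8. It was thus among the strongest peaks of all 3 null lists, while the nearest WT peak was 21262 bp away. Its window was the only one of the 6 with an AP-1 consensus, which occurred 2 times.

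The second site, chr2:55822262-55823305, was intergenic and lay 385687 bp downstream of the start of Kcnj3, a potassium channel gene, with summits of 146, 94 and 487 fragments in the untransfected null, NT siRNA and H2A.Z siRNA lists, always in this order below, and percentiles of 98.2, 95.8 and 97.1. The third, chr4:88788425-88788878, had its null summit 26 bp from the start of the protein-coding gene Gm13277, with 83, 95 and 291 fragments and percentiles of 94.6, 98.2 and 94.7. The fourth, chr10:22223436-22223898, lay within Raet1e and H60b, genes for ligands of the natural killer receptor NKG2D, with 79, 79 and 412 fragments and percentiles of 93.1, 92.6 and 99.9. These 4 sites were the only ones of the 6872 that reached the 90th percentile in all 3 null lists.

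The fifth site, chr11:57090915-57092073, lay in an intron of Gria1, which encodes an AMPA-type glutamate receptor subunit, 78488 bp downstream of its start and 365602 bp from the nearest WT peak. It had 199, 192 and 996 fragments and percentiles of 91.9, 87.6 and 90.02. The sixth, chr19:15467661-15468301, was intergenic, with Psat1, an enzyme gene of serine synthesis, 456662 bp away as the nearest protein-coding start. It had 80, 99 and 342 fragments and percentiles of 87.5, 95.3 and 95.4. Apart from the first site, these windows shared no AP-1 match, and 3 of the 6 held none of the 3 consensus sequences.

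Such strong sites were rare. All 3 percentiles were at least 75 for 40 null-shared sites (0.582%), at least 50 for 461 (6.71%) and at least 25 for 2504 (36.4%). The median null-shared site stood at percentile 23.4 in the untransfected null list, 34.8 in the NT siRNA list and 45.7 in the H2A.Z siRNA list, with summits of 24, 34 and 128 fragments. At sites called in all 4 lists the medians were 63.3, 65.1 and 71.3. Of the null-shared sites, 54.7% (95% Wilson interval 53.5 to 55.9%, counting error only, for this and the intervals below) were in the lowest quartile of fold of the untransfected null list, compared with 34.0% (32.9 to 35.2%) for NT siRNA and 18.2% (17.3 to 19.1%) for H2A.Z siRNA. The lists differ in length, at 80433, 87116 and 105816 peaks, and the medians of sites called in all 4 lists also differed between them, so a percentile does not stand for the same rank in each list.

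**Figure D1:**
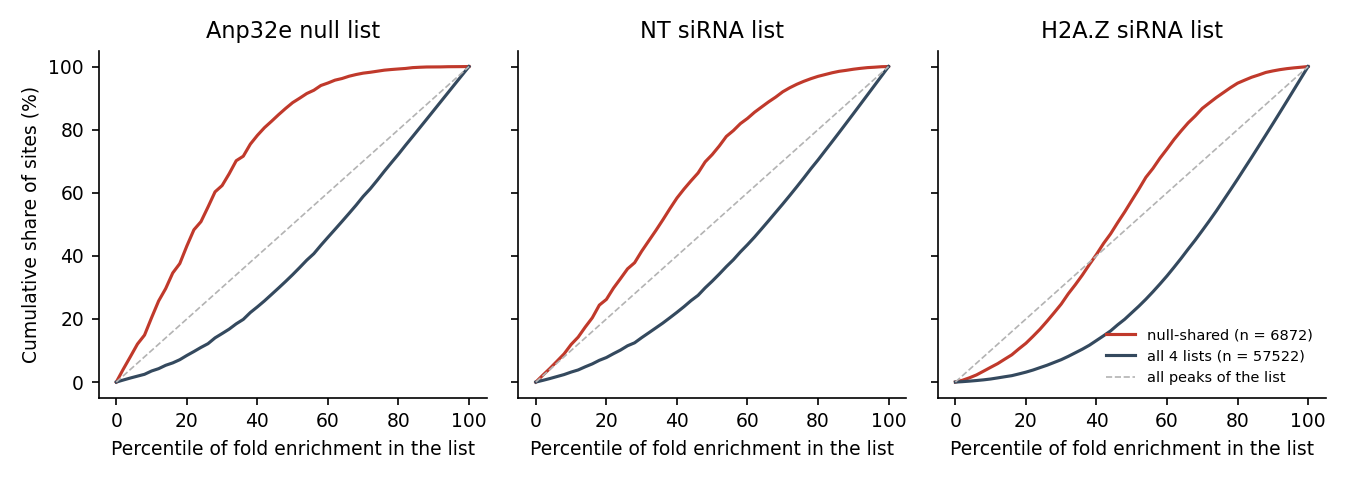
Cumulative share of sites (%) against the percentile of fold enrichment within each null list, for 6872 null-shared sites (red) and 57522 sites called in all 4 lists (dark); the dashed line stands for all peaks of a list. The red curve lies above the dashed line in the untransfected null list (median 23.4) and comes closest to it in the H2A.Z siRNA list (median 45.7).

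Peaks were narrow in the untransfected null list, at a median of 347 bp, against 415.5 bp for the NT siRNA list and 594 bp for the H2A.Z siRNA list, while sites called in all 4 lists had medians of 685, 671 and 887 bp. Within the null-shared sites, scaled pileups, that is summit fragments divided by the genome-wide background of the list, correlated across sites with a Spearman rho of 0.785 between the siRNA lists and 0.442 between the untransfected null and NT siRNA lists. At sites called in all 4 lists the values were 0.952 and 0.819. Sites are not independent replicates, and all of these values come from the same 3 lists.

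Peak positions were close between lists. The median distance between summits was 46 bp for untransfected null and NT siRNA, 40 bp for untransfected null and H2A.Z siRNA, and 27 bp for the siRNA lists, and 84.1%, 86.0% and 90.6% of pairs lay within the length of DNA on a nucleosome. At sites of the lowest fold quartile of the untransfected null list, the first of these medians was 62 bp, the same as the 62 bp of sites called in all 4 lists in that quartile. In the highest quartile the medians were 17 bp for 89 null-shared sites and 16 bp for sites called everywhere. Within these quartiles, summits of null-shared sites were thus about as close between lists as those of sites called everywhere.

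Because WT lacked a call, only an upper limit on its signal can be given. A WT peak at the genome-wide background needed 19 fragments, 2.15 times that background, and more where the local background was higher. When the local background at each site was taken from the untransfected null list, the scaled null pileup was a median of 1.91 times the WT call level (quartiles 1.64 and 2.37), and it was at least 2 times that level at 3114 sites (45.3%). Sites called in all 4 lists had a scaled pileup 1.54 times higher in null than in WT at the median. That general ratio was exceeded by 5743 null-shared sites (83.6%), and 2 times that ratio by 623 (9.07%). All 6872 were at or above the WT call level. The lowest scaled pileup called was 2.54 in untransfected null against 2.15 in WT, so the calls that chose the sites bear on these shares. They do not measure a gain beyond the general ratio. A stretch too short for the caller could also go unlisted; the narrowest WT peak was 211 bp.

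The weakest call of a null-shared site had a −log10 q of 1.35, a fold of 2.29 and 13 fragments in the untransfected null list, a −log10 q of 1.36, a fold of 2.05 and 18 fragments in the NT siRNA list, and a −log10 q of 2.14, a fold of 1.86 and 34 fragments in the H2A.Z siRNA list. Just outside, the weakest WT call among sites called in all 4 lists had a −log10 q of 1.33, a fold of 1.90 and 23 fragments. Null-shared sites were often neighbours of WT peaks, with a median gap of 5911 bp, 9.25% within 1 kb and 69.0% within 10 kb.

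Null-shared sites were mostly distal. A promoter, here 1 kb on either side of any of 125891 annotated start positions, held 686 of them, or 9.98% (9.30 to 10.7%). At sites called in all 4 lists the share was 28.0% (27.7 to 28.4%), and null-shared sites had the lower share on 19 of 19 autosomes. Introns held 48.2% of null-shared sites, intergenic DNA 37.3% and exons 4.61%. The promoter share was close to that of the other classes that lacked a call in some list, at 9.28% (8.68 to 9.91%) in WT alone, 8.93% (8.05 to 9.89%) in untransfected null alone and 10.8% (9.86 to 11.8%) in the mirror class. Median distance to a protein-coding start was 26623.5 bp, between the 16733.5 bp of sites called everywhere and the 36062 bp of sites in WT alone.

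**Figure D2:**
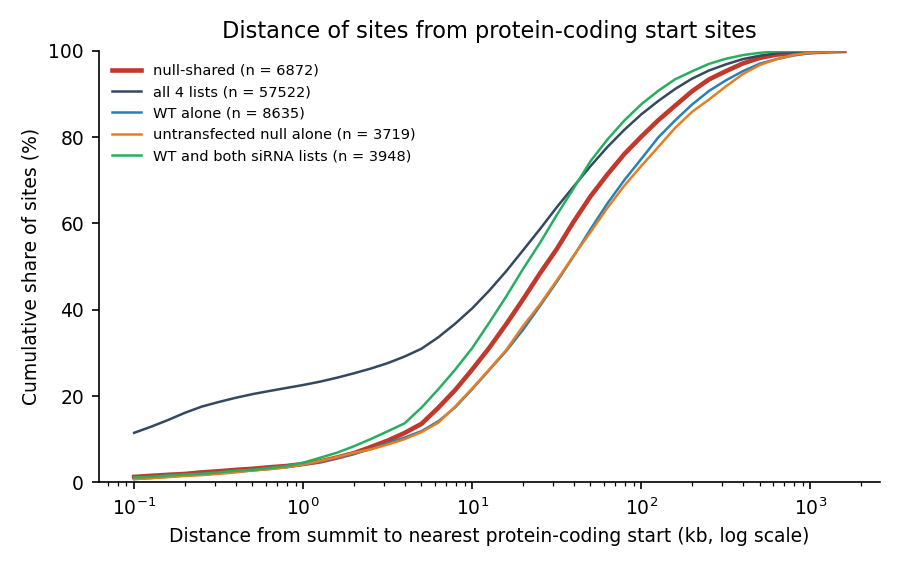
Cumulative share of sites (%) against distance from the summit to the nearest protein-coding start (kb, log scale) for the 5 classes of sites. Within 1 kb lie 4.28% of null-shared sites (thick red line) and 22.6% of sites called in all 4 lists (dark line), and beyond 10 kb the null-shared line runs between those of the other classes.

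The promoter share was also lower among sites of like strength. In the lowest fold quartile of the untransfected null list, 12.2% of null-shared sites and 17.9% of sites called in all 4 lists were at promoters, and the shares were 7.60% and 17.6%, 6.46% and 24.7%, and 7.87% and 41.2% in the next quartiles. The null-shared sites that did lie at promoters were poor in CpG, the dinucleotide whose clusters mark the promoters of widely expressed genes. Windows of 100 bp to either side of their summits held a median of 3 CpG and 53.2% GC, against 15 CpG and 62.7% GC at promoter sites called in all 4 lists. The ratio of observed to expected CpG was 0.242 against 0.752. Away from promoters the classes were alike in GC content, at medians of 48.3% and 47.8% in introns and 47.3% and 47.8% between genes.

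Among the 6872 sites, 294 had their null summit within 1 kb of the start of a protein-coding transcript, at 286 genes. For 134 of these genes (46.9%), no WT peak lay within 1 kb of any protein-coding start, so these starts had a call in the null lists without one in WT. The windows of 50 bp to either side of the summit show 4 of the 8 strongest sites at protein-coding starts, and the capitals mark the same consensus sequences as above.
Chn1, chr2:73626565-73626665: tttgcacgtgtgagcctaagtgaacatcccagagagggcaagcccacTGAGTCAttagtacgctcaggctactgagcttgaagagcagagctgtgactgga
Ccdc83, chr7:90265694-90265794: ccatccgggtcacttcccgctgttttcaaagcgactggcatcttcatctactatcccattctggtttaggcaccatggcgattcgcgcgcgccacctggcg
Dok5, chr2:170731999-170732099: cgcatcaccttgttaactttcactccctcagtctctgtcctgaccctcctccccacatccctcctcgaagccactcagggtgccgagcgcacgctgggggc
Gria4, chr9:4796089-4796189: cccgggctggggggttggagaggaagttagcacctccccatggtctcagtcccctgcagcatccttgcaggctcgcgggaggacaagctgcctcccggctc

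The Chn1 site, chr2:73626218-73626732, lay 875 bp upstream of the start of this gene for a Rac GTPase-activating protein, with 37, 49 and 264 fragments and percentiles of 59.1, 69.6 and 79.4, and it held an AP-1 match. The Ccdc83 site, chr7:90265296-90266213, ranked higher in both siRNA lists, at percentile 56.02 with 35 fragments, then 95.6 with 86 and 94.2 with 287. The Dok5 site, chr2:170731396-170732585, at the start of a gene for a docking protein of receptor tyrosine kinases, had 51, 36 and 122 fragments, and its percentiles of 58.2, 53.9 and 58.2 hardly differed.

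The Gria4 site, chr9:4795527-4796517, had its summit 3 bp from the start of a second AMPA receptor subunit gene, with 41, 36 and 166 fragments and percentiles of 64.4, 53.9 and 71.5. The nearest WT peak was 140684 bp from the Dok5 site and 418505 bp from the Gria4 site. Both start sites thus stood in a wide stretch without WT calls. At Crabp1, which encodes a carrier of retinoic acid, the site chr9:54764063-54766026 covered the start, and no WT peak was nearer than 7006 bp. It had 32, 63 and 218 fragments and percentiles of 44.8, 62.5 and 58.1. Neither Anp32e, the H2A.Z genes H2afz and H2afv, nor Cdkn1c held a null-shared site.

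Besides the 4 sites shown and the one at Gm13277 on chromosome 4, the 8 strongest sites at protein-coding starts included 3 on chromosome 18. The site at Gm6665, inside Wdr33, a gene for a factor of messenger RNA cleavage, had 45, 85 and 315 fragments and percentiles of 68.9, 80.9 and 80.5, and 77.1% of its window was annotated as repeat. The site at Pcdhgb7, a member of the clustered gamma-protocadherins for cell adhesion, had 49, 77 and 221 fragments and percentiles of 67.0, 75.1 and 77.4. The site at Sh3tc2 had 69 fragments in the untransfected null list, 265 after H2A.Z siRNA, and percentiles of 69.5, 70.9 and 60.5, the only one of the 3 that ranked lowest after H2A.Z siRNA.

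The strongest sites inside protein-coding genes and over 1 kb from any start were, after that of Gria1, all intronic. The site in Armc4, chr18:7205151-7205672, had percentiles of 83.7, 92.6 and 98.2. The site in Xylt1, whose product starts the sugar chains of proteoglycans, chr7:117516908-117517798, had 83.6, 96.2 and 90.6. The site in Dab2, an endocytic adaptor gene, chr15:6411089-6411954, had 83.2, 83.3 and 88.8, and it held an AP-1 match, as did the one in Armc4. In no gene, after the sites near Kcnj3 and Psat1, followed chr1:113297737-113298371, 1433151 bp from Dsel and 1432315 bp from a WT peak, with percentiles of 87.2, 89.0 and 91.3, and chr4:84037357-84038301, 254052 bp from Bnc2, with 87.0, 89.2 and 96.3.

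Next, 22 consensus sequences were searched on both strands within 100 bp of the summit. AP-1 (TGANTCA) was the most frequent at null-shared sites, at 29.7% (28.6 to 30.8%), against 31.1% (30.8 to 31.5%) at sites called in all 4 lists and 30.3% of all 80433 untransfected null peaks. It was found at 20.3% (19.5 to 21.2%) of sites in WT alone, 21.1% (19.9 to 22.5%) of sites in untransfected null alone and 25.6% (24.2 to 26.9%) of the mirror class. Null-shared sites had the higher AP-1 share on 19 of 19 autosomes against WT alone, on 18 against untransfected null alone, on 16 against the mirror class and on 4 against sites called everywhere.

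The AP-1 share was higher at stronger sites. Over quartiles of strength, 19.9%, 25.4%, 32.4% and 40.9% of null-shared sites held the consensus. Over 1 kb from every start, the shares were 21.4% (19.4 to 23.6%), 26.2% (24.1 to 28.5%), 33.0% (30.7 to 35.4%) and 41.9% (39.5 to 44.4%). At sites called in all 4 lists within the same bounds of strength they were 24.7% (23.0 to 26.5%), 29.1% (27.6 to 30.7%), 32.2% (31.0 to 33.4%) and 43.1% (42.6 to 43.7%). The overall distal shares, 30.9% and 39.4%, were further apart than the values within each of these 4 strata, and the intervals overlapped in all 4. The highest stratum ran from 32.2 to 99.8, with 1718 null-shared sites and 43635 called everywhere, so strength was not matched within it. Only 461 null-shared sites reached 50, while median strength at sites called everywhere was 57.6 with AP-1 and 54.8 without. RUNX (TGTGGT) was found at 18.1%, 19.6%, 21.9% and 25.2% of null-shared sites over these quartiles, and at 17.4%, 19.4%, 19.9% and 19.7% of sites called everywhere. TEAD (GGAATG) was found at 16.4%, 19.04%, 23.3% and 22.0% of null-shared sites and at 19.5%, 19.3%, 20.5% and 20.9% of sites called everywhere, promoters included in both classes.

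**Figure D3:**
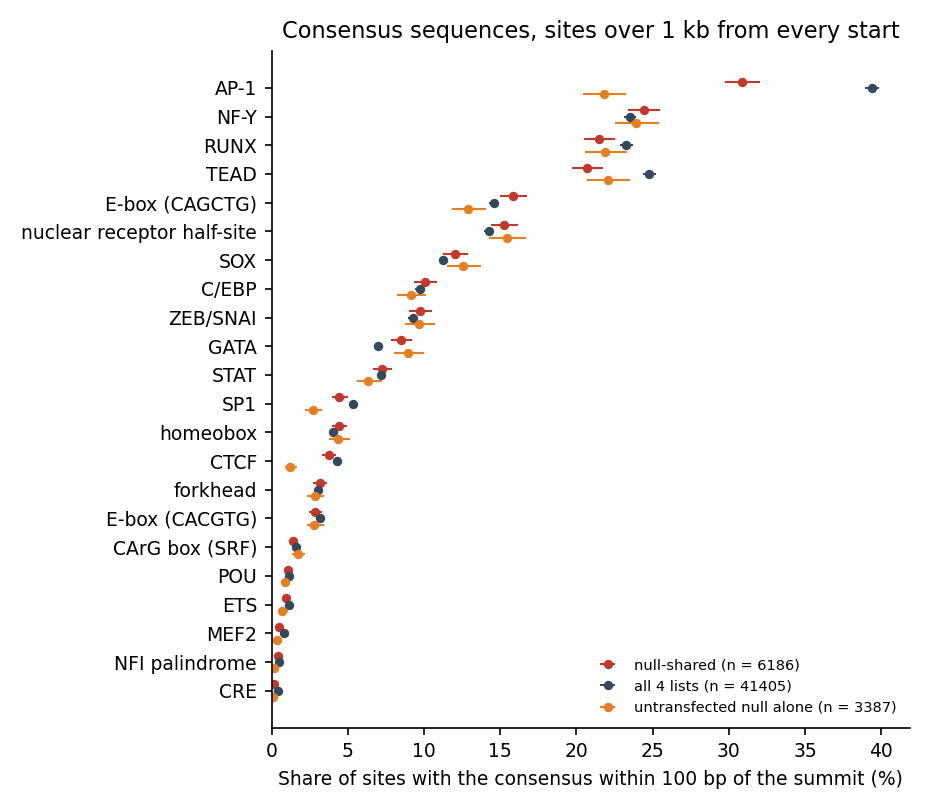
Share of sites (%) with each consensus sequence within 100 bp of the summit, for sites over 1 kb from every start; points give null-shared sites (red), sites called in all 4 lists (dark) and sites in untransfected null alone (orange), and bars are 95% Wilson intervals for counting error. AP-1 separates the classes most, at 30.9% of null-shared sites and 39.4% of sites called in all 4 lists.

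CTCF, the insulator protein, was matched at 3.74% of null-shared sites and 3.51% of sites called in all 4 lists, but at 1.18% of sites in untransfected null alone and 6.71% of the mirror class. SP1 (GGGCGG) was matched at 5.24% against 15.8% at sites called everywhere, and ETS (CCGGAAG) at 0.990% against 3.54%, both higher at null-shared sites on 0 of 19 autosomes. Over 1 kb from every start these gaps were small, with SP1 at 4.45% and 5.32% and ETS at 0.954% and 1.13%. The GATA family consensus AGATAA was matched at 8.31% against 5.76%, and at 8.49% against 6.96% away from starts. The consensus of SOX factors, ACAATG, was matched at 11.6% against 9.45%, and at 12.03% against 11.3% away from starts. Over all sites, both shares were higher than at sites called everywhere on 19 of 19 autosomes, but higher than in untransfected null alone on 9 (GATA) and 7 (SOX) and than in WT alone on 10 and 10.

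The remaining consensus sequences had shares at null-shared sites within 2 percentage points of those at sites called everywhere, save for the nuclear receptor half-site (AGGTCA) at 15.1% against 12.6%. The highest of these were NF-Y (CCAAT) at 24.4% against 24.1%, the E-box CAGCTG at 15.8% against 14.1%, ZEB/SNAI (CACCTG) at 10.2% against 9.78%, C/EBP (TTGCNNAA) at 9.95% against 8.44%, STAT (TTCNNNGAA) at 7.12% against 6.27% and homeobox (TAATTA) at 4.25% against 3.18%. The E-box CACGTG at 2.98%, forkhead (TGTTTAC) at 2.998%, the SRF-binding CArG box at 1.34%, POU (ATGCAAAT) at 1.05%, MEF2 at 0.495%, NFI at 0.393% and CRE (TGACGTCA) at 0.175% were rare. A match is only a string of letters at a site, and binding was not measured.

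To see how the sites behaved on H2A.Z depletion, the scaled pileup after H2A.Z siRNA was divided by that after NT siRNA. A site had to be called in both siRNA lists to be counted, so sites that lost their call on depletion are missing. For example, 456 sites were called in the untransfected null and NT siRNA lists only. The low end of the ratio is thus cut by the choice of sites. The median log2 ratio was −0.28 (order-statistic interval −0.30 to −0.27, autosomes −0.36 to −0.21) at null-shared sites and −0.27 at all 79699 sites called in both lists. At sites called in all 4 lists it was −0.25, so relative to those the null-shared median was −0.031, and the sign depended on the scaling, with a median of 0.060 when the 1000 strongest sites were set to 0. A ratio of −1 or less, that is at least 2 times lower after H2A.Z siRNA, was found at 498 null-shared sites (7.25%), beside 4.85% of all sites called in both lists. A ratio of 1 or more was found at 52 (0.757%), beside 0.364% of all. By quartile of fold in the untransfected null list, ratios of −1 or less made up 7.08%, 7.65%, 7.17% and 4.49% of null-shared sites. At sites called in all 4 lists the shares were 6.02%, 5.65%, 4.00% and 1.75%. The NT siRNA list is 1 library with a background of 3.88 fragments, against 2 libraries and 17.8 for H2A.Z siRNA. The spread was wider at null-shared sites, with an SD over sites of 0.503 against 0.437, and their pileups were lower; the part of counting noise was not tested.

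**Figure D4:**
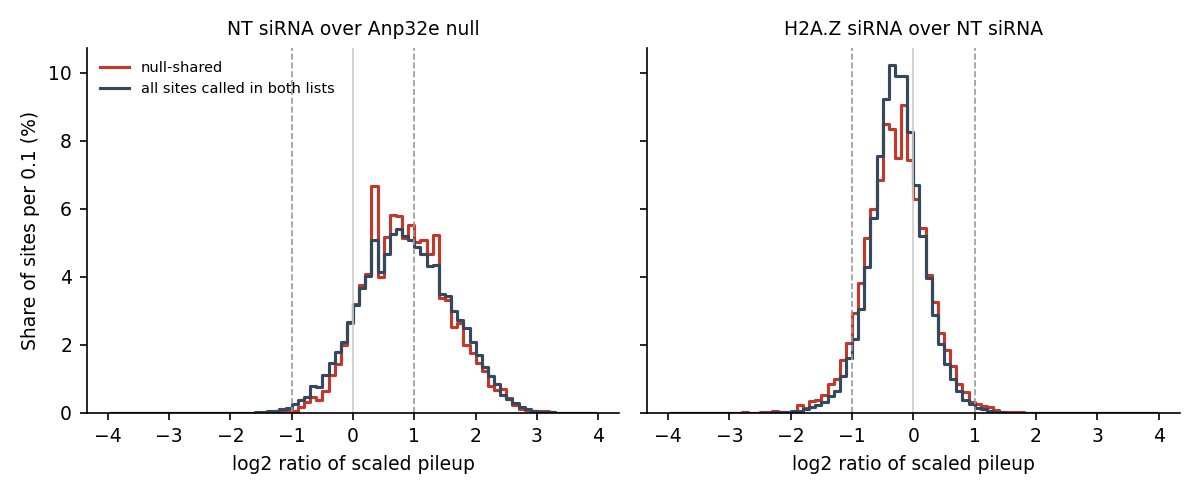
Distribution of log2 ratios of scaled pileup, in share of sites (%) per 0.1, for null-shared sites (red) and all sites called in both lists (dark), with dashed lines at −1 and 1. In both panels the curves have nearly the same centre, at medians of 0.84 and 0.85 for NT siRNA over untransfected null and −0.28 and −0.27 for H2A.Z siRNA over NT siRNA.

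Among sites of like strength in the untransfected null list, which is not part of this ratio, the medians were −0.30 for null-shared sites and −0.28 for sites called everywhere in the lowest quartile, −0.27 and −0.26 in the second, −0.24 and −0.23 in the third and −0.18 and −0.26 in the highest, where 89 null-shared sites were left. When strata were taken from the NT siRNA list, the divisor of the ratio, the medians were −0.15 and −0.10, −0.30 and −0.19, −0.41 and −0.23, and −0.50 and −0.32. These strata share the NT siRNA library with the ratio itself, so the 2 are not independent.

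Within null-shared sites the ratio differed with the AP-1 consensus. The median was −0.11 at 2040 sites with AP-1 and −0.36 at 4832 without, and −0.10 and −0.32 at sites called in all 4 lists, so both classes had the same order. Sites with a CTCF consensus were lower, at −0.38 for 257 null-shared sites and −0.41 for sites called everywhere. By location, the null-shared medians were −0.32 at promoters, −0.19 in exons, −0.29 in introns and −0.28 between genes. At sites called in all 4 lists they were −0.30, −0.28, −0.22 and −0.22.

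The highest ratios among null-shared sites at percentile 50 or more in both siRNA lists came from chromosomes 16 and 12. The site chr16:93220318-93221498, near Setd4, had 35 fragments with the NT pool and 382 on H2A.Z depletion, a log2 ratio of 1.25. The site chr16:92021774-92022339, near Mrps6, had 46 and 448, a ratio of 1.08, and chr12:28657873-28658713, in an exon of Rnaseh1, had 40 and 355, a ratio of 0.95. All 3 held an AP-1 consensus. The lowest ratios were at chr13:31715173-31716061, 90084 bp from Foxf2, a forkhead factor gene, with 84 and 107 fragments and a ratio of −1.85, at chr6:100059418-100060387 near Rybp, with 102 and 134 and −1.81, and at chr19:37800116-37801014, 102456 bp from Cyp26a1, the retinoic acid-degrading enzyme, with 81 and 107 and −1.80. None of these held AP-1. These 3 sites had 24, 25 and 19 fragments in the untransfected null list, where the median null-shared site had 24.

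NT siRNA and untransfected null cells share their genotype, but transfection cannot be told apart from experiment, library number (1 against 3) and depth (background of 3.88 against 5.12 fragments). The scaled pileup was higher after NT siRNA at null-shared sites by a median log2 ratio of 0.84 (0.82 to 0.86), but it was also higher at sites called in all 4 lists, at 0.86, so relative to those the null-shared median was −0.020. A ratio of 1 or more was found at 2856 null-shared sites (41.6%), beside 42.1% of all 65523 sites called in both lists, and a ratio of −1 or less at 7 (0.102%), beside 0.418%. A site had to be called after NT siRNA to be counted. The 257 sites with a CTCF consensus had a higher ratio, at 1.22 against 0.83 without it, and at sites called everywhere the values were 1.09 and 0.85. These CTCF-matched sites were at median percentile 21.5 in the untransfected null list and 49.998 after NT siRNA.

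Null-shared sites were unevenly spread over the chromosomes. Per 100 sites called in all 4 lists there were 11.9 null-shared sites over all autosomes, from 7.19 on chromosome 9 and 9.01 on chromosomes 8 and 14 to 16.8 on chromosome 18, 17.4 on chromosome 19 and 17.8 on chromosome 15. Against the 3948 mirror sites, null-shared sites were 2.99 and 3.01 times as many on chromosomes 18 and 19 but fewer on chromosomes 9, 11 and 14, at 0.819, 0.811 and 0.854 times. The excess of null-shared over mirror sites was therefore not seen on all autosomes.

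The chromosomes with many null-shared sites were those where the general level was higher in null. The median log2 ratio of untransfected null over WT at sites called in all 4 lists ranged from 0.40 on chromosome 14 to 0.84 on chromosome 18, and over the 19 autosomes it had a Spearman rho of 0.923 with the number of null-shared sites per 100; all points come from the same 2 lists. When the null pileup was divided by the ratio of its own chromosome and again compared with the WT call level, 5393 null-shared sites were left, from 57.1% of those on chromosome 17 to 98.4% on chromosome 14. Per 100 sites called everywhere they then ranged from 6.92 to 11.9, with chromosomes 15, 18 and 19 still the highest, and rho was 0.621. The part of chromosome-wide differences in single sites was not tested beyond this.

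**Figure D5:**
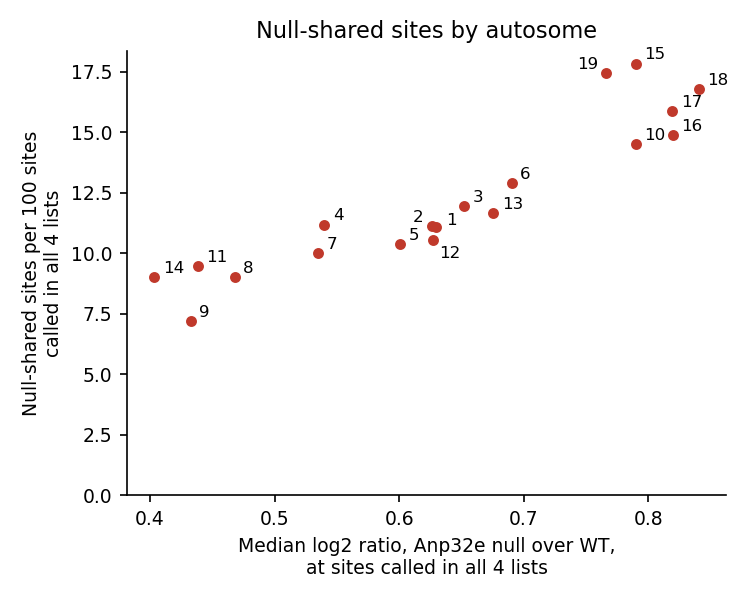
Null-shared sites per 100 sites called in all 4 lists against the median log2 ratio of scaled pileup, untransfected null over WT, at sites called in all 4 lists; each point is 1 autosome. Chromosomes 15, 16, 17, 18, 19 and 10 lie at the upper right and chromosomes 9, 8, 14 and 11 at the lower left.

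On a finer scale, 5-Mb bins held a median of 11 null-shared sites and at most 50. Over the 413 bins with at least 50 sites called everywhere, the Spearman rho of the same relation was 0.398, lower than over whole autosomes. The highest density in these bins was on chromosome 15 from 10000001 to 15000000, with 33 null-shared and 98 sites called in all 4 lists. The median distance from a null-shared site to the next was 50247 bp, 14.3% had another within 10 kb, and 119 runs of 3 or more with gaps of up to 20 kb held 394 sites. The longest runs had 5 sites. They lay at Tnni1 and Lad1, in Rad51b, in Il17rd, an inhibitor of FGF signalling, at the aquaporin genes Aqp2 and Aqp5, and in a stretch of chromosome 17 without a protein-coding gene. Within 1 Mb of Anp32e itself there were 12 null-shared and 124 sites called everywhere.

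Of 20807 protein-coding genes, 2775 had a null-shared summit in the gene body or up to 5 kb upstream, which is 13.3%. Most of them, 2001, had 1. The share depended on gene length, from 3.03% of genes up to 10 kb to 51.2% of genes over 300 kb, and genes with a null-shared site had a median length of 62.9 kb against 14.7 kb for the others. Over all coding genes there were 10.1 null-shared sites per 100 sites called in all 4 lists, and the gene groups below are set against that value and against 13.3%, as a description.

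The genes with the most null-shared sites were long. Apart from Gm20388, a 4435-kb annotation that spans many genes and held 34, they were Pde4d, a cyclic AMP phosphodiesterase gene, with 14, Lpp, a focal adhesion gene, with 11, Hdac9, a histone deacetylase gene, with 10, Prkg1, the cyclic GMP-dependent kinase gene, with 10, and Asap1, Arhgap26 and Rad51b with 9 each. Arhgap26 is annotated as a pair of overlapping genes with 9 sites each. Dgki, a diacylglycerol kinase gene, and the long annotation Gm37240 followed with 8 each. Per 100 kb, Asap1 had 2.99 and Arhgap26 2.32 at the denser of its annotations, while Pde4d had 0.928. The strongest site of these genes was in Hdac9, whose lowest percentile was 77.5.

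Null-shared sites were found at 4 of 9 fibroblast marker genes, 17.9 per 100 sites called everywhere (5 and 28 sites). In Col1a2, a type I collagen gene, the site chr6:4520849-4521579 had 29, 58 and 262 fragments and percentiles of 45.2, 48.6 and 63.4. In Prrx1, a mesenchymal transcription factor gene, the site had percentiles of 17.4, 41.1 and 38.1. At Thy1, a fibroblast surface glycoprotein gene, it lay 31 bp from the start, with percentiles of 5.99, 6.09 and 15.4, and Thy1 was the only one of the 9 without a WT peak at its start. Over the 4 lists, a start peak was called at 8 of 9 fibroblast markers in WT and at 9 of 9 in each null list, at 3 or 4 of 5 endothelial, 2 or 3 of 5 haematopoietic, 4 or 5 of 5 epithelial and 4 or 5 of 5 neural markers, and at 3 of 5 skeletal muscle markers in WT and untransfected null and 1 of 5 in both siRNA lists.

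Markers of other cell types held null-shared sites as well, and the rate per 100 sites called everywhere was higher than for fibroblast markers for haematopoietic markers, at 33.3 (3 and 9 sites), and for epithelial markers, at 20 (2 and 10 sites). It was 8.33 for endothelial and 6.25 for neural markers, and all of these rates rest on few sites. The genes were Pecam1 among 5 endothelial markers (percentiles 21.5, 43.8 and 47.8), Ptprc (63.1, 68.5 and 52.2) and Spi1 (10.5, 6.27 and 21.9) among 5 haematopoietic, Cdh1 among 5 epithelial (18.3, 41.9 and 55.8) and Map2 among 5 neural (45.2, 14.9 and 39.6), and 0 of 5 skeletal muscle markers had a site. Ptprc encodes the leukocyte antigen CD45, and neither it nor Spi1 had a peak at its start in WT, untransfected null or NT siRNA.

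Null-shared sites were found at 12 of 39 collagen and matrix genes, 13.1 per 100 sites called everywhere. This was 30.8% at a median length of 49.1 kb, beside 18.9% of all genes of 30 to 100 kb. In Col8a1 the site chr16:57634148-57634641 was at percentiles 64.4, 92.1 and 88.5, with 41, 109 and 288 fragments, and in Col14a1 the percentiles were 47.2, 62.9 and 81.3. Contractile genes and targets of the serum response factor SRF had sites at 6 of 17, 14.3 per 100. This was 35.3% at a median length of 26.8 kb, beside 9.46% of all genes of 10 to 30 kb. Mylk, the myosin light chain kinase gene, had 5 sites, the strongest with 57, 195 and 520 fragments and percentiles of 58.3, 86.5 and 78.4. The site in Lmod1, for an actin nucleator, had 45.2, 68.5 and 81.1, and the stronger of those in Myocd, the SRF coactivator gene, 38.6, 47.7 and 65.1.

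Of the TEAD, YAP and Hippo genes, with a median length of 68.7 kb, 7 of 19 had a null-shared site (36.8%, beside 18.9% of all genes of 30 to 100 kb), 13 per 100. The strongest were in Tead4 (percentiles 42.1, 54.2 and 60.5), in Vgll4, a TEAD cofactor gene with 4 sites (27.8, 57.4 and 70.8), and in the kinase gene Stk3 (27.8, 26.4 and 54.7). Wnt genes, with a median length of 30.4 kb, had sites at 14 of 47 (29.8%, beside the same 18.9%). They had 14.4 per 100, led by the receptor gene Ror2 (43.2, 47.7 and 71.8), the transcription factor gene Tcf7 (36.1, 57.4 and 63.7) and the ligand gene Wnt5a (36.1, 70.6 and 66.9). TGF-beta and BMP genes, with a median length of 61.4 kb, had sites at 9 of 38 (23.7%, again beside 18.9%). With 10.1 per 100 they were at the average. They included the receptor gene Acvr1 (41.0, 65.8 and 66.6), Ltbp1, a latent TGF-beta binding protein gene with 6 sites (37.3, 35.9 and 57.02), and Tgfbr3 (18.3, 37.7 and 46.7).

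Axon guidance genes had the highest share, at 18 of 34, but their median length was 202 kb, and with 10.9 per 100 they were near the average of 10.1. Efna5, an ephrin gene, led with percentiles of 60.5, 68.5 and 75.4, before the semaphorin receptor gene Nrp1 (49.1, 47.7 and 47.4) and Sema3d (52.7, 42.6 and 55.3). The retinoic acid pathway had sites at 6 of 20 genes, 10.8 per 100. Besides Crabp1, they included Stra6, the retinol uptake receptor gene, with a site of percentiles 21.5, 36.8 and 35.3. Both genes ranked higher in the siRNA lists than in the untransfected null list.

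Among transcription factors, forkhead genes had sites at 8 of 24, 15.5 per 100, led by Foxp1 with 4 sites (45.2, 44.3 and 66.3), Foxo1 (45.2, 70.0 and 39.6) and Foxo3 (22.8, 35.6 and 69.3). Limb and mesenchymal factors had sites at 12 of 41, 10.3 per 100, led by Meox2 (52.7, 40.7 and 45.0), Tbx4, the hindlimb T-box gene (45.8, 36.0 and 52.4), and Sp7, the osteoblast factor gene, 203 bp from its start (32.1, 59.6 and 43.3). Hox genes had sites at 4 of 39, 11.1 per 100. Hoxc11 held 3 and no site called everywhere, the strongest of them 399 bp from its start (23.6, 34.2 and 44.5), Hoxc4 held 2 (8.01, 12.2 and 24.98), and Hoxd1 held 1 (4.06, 3.89 and 11.3). Neural factor genes, short at a median of 6.67 kb, had sites at 2 of 32 (6.25%, beside 3.03% of all genes up to 10 kb), which makes 3.57 per 100 from 2 sites, with Tfap2b (58.6, 55.3 and 53.0) and Pax7 (26.96, 52.4 and 56.02). Of the genes for AP-1 factors themselves, 3 of 13 had a site, namely Atf3 (36.1, 31.8 and 40.4), Batf (18.3, 46.0 and 32.6) and Mafk (3.11, 2.80 and 2.59).

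Of 44 cytosolic ribosomal protein genes, 2 had a null-shared site, Rps27 (percentiles 32.5, 4.45 and 6.80) and Rpl11 (20.2, 4.29 and 9.51), and of 39 replication and cell cycle genes 4, with E2f7 (19.5, 28.1 and 45.0), E2f2 (7.09, 39.5 and 34.4) and E2f1 (1.43, 5.52 and 13.6) the strongest. They came to 2.99 and 5.97 per 100. Of 17 genes for H2A.Z, its deposition complexes and the ANP32 family, Anp32b alone had a site, at percentiles of 15.8, 7.87 and 9.26, which makes 2.94 per 100. Interferon response genes had sites at 4 of 25, 12.1 per 100, among them the antiviral genes Oasl2, 710 bp from its start (27.8, 45.7 and 36.5), Mx1, 159 bp from its start (20.3, 27.2 and 27.2), and Ifit2 (18.3, 56.7 and 76.8).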

How the data were processed

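The 9 ATAC-seq libraries had been prepared with the Illumina Nextera DNA Flex kit. The authors aligned paired reads to mm10 with Bowtie2, dropped duplicates (Picard) and ran the MACS2 caller on the merged libraries of each group. Column by column, the deposited fold is a ratio, the summit pileup plus 1 over the local background plus 1, the p-value and q-value were deposited as −log10 values, and the last deposited column is the summit's offset in bp. Pooling means that the spread between libraries, which may be technical, was not used here.

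The lists held 84126 peaks for WT, 82640 for untransfected null, 89272 with NT siRNA and 108409 with H2A.Z siRNA, of which 81848, 80433, 87116 and 105816 lay on chromosomes 1 to 19. Fold and p-value fix the pileup and local background of a peak. All recovered pileups were within 0.05 of a whole number, and the commonest background (8.85, 5.12, 3.88 and 17.8 fragments) stands for depth. This step and the consensus search were tested on simulated data, and the merging was checked against bedtools 2.31.1. Genes and starts were those of GENCODE M21 on GRCm38. No blacklist was applied here.

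The null-shared sites, the 22 gene lists, of which 514 of 523 genes matched, and the 22 consensus sequences were chosen with earlier results of these data known. Named sites and genes followed a rule: the 6 strongest sites, the 8 strongest at coding starts, the 4 strongest inside genes and outside genes, the 10 genes with most sites, up to 3 genes per list (1 gene so named is not reported here), the 3 highest and lowest siRNA ratios, and Anp32e, H2afz, H2afv, Crabp1 and Cdkn1c. No test was made, since each group is 1 list. Alternatives were a −log10 q of 5, lists of equal length (80433 peaks), other merging and promoter rules, WT thinned to the null depth, other windows and other scalings. Python 3.11.15, NumPy 2.4.6, SciPy 1.17.1, pandas 2.3.3 and matplotlib 3.10.9 were used.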

Additional observations from a re-analysis of the deposited data

Results flagged for a closer look

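The comparisons above used chromosomes 1 to 19. The sex chromosomes lie outside these comparisons but held sites of the same kind. On chromosome X, 191 of 3113 merged sites met the same rule, a call in the 3 Anp32e null lists and none in WT. There were 12.9 per 100 sites called in all 4 lists, within the range of the autosomes. On chromosome Y, 6 of 22 merged sites met it, beside 8 called in all 4 lists.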

How the results depend on the processing

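No paired analysis was possible because libraries had been merged by group, so no replicate could be left out either. The scaling by chromosome was chosen after seeing the data. Between 5393 and 8360 null-shared sites were found under 7 other definitions, 4110 of the 7086 at a −log10 q of 5 being among the main 6872. The promoter share fell to 6.46% within 500 bp, 4.28% for protein-coding starts and 9.25% after scaling by chromosome. The AP-1 share was 33.6% at the stricter q, 32.1% with lists of equal length, 19.5% within 50 bp of the summit, 31.8% and 34.0% around NT siRNA and H2A.Z siRNA summits, and 32.8% after scaling by chromosome. The median log2 ratio of H2A.Z siRNA over NT siRNA was −0.23 with lists of equal length, −0.14 from the deposited fold, −0.031 with sites called in all 4 lists set to 0, and turned to 0.060 with the strongest 1000 of them set to 0. That of NT siRNA over untransfected null was 0.81 at the stricter q, 0.98 with equal lists, 0.77 after scaling by chromosome, 0.55 from the fold, 0.23 with the strongest 1000 set to 0, and turned to −0.020 with all such sites set to 0. Genes of a list with a site rose from 119 to 203 by nearest start. Beyond what each alternative does by construction, the cause was not tested. Depth differed between lists: the lowest scaled pileup called was 1.80 for H2A.Z siRNA, 2.15 for WT, 2.54 for untransfected null and 2.83 for NT siRNA.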
